A study of Mus musculus with 6 samples.

Results

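The genes described here encode the folding machinery of the endoplasmic reticulum (ER) and the unfolded protein response that adjusts it. They are 35 named genes, taken from the 18193 mouse genes that had at least 1 probe set with a single gene symbol. Where several probe sets carried a gene, the one with the highest log2 signal averaged over the 6 arrays stood for it. The genes fall into 14 chaperones and folding enzymes, 4 sensors and transcription factors (the group that holds Xbp1), 7 genes of the ATF4 branch, 9 genes of ER-associated degradation, and Sec61b, a subunit of the translocation channel.

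Islets of Langerhans were isolated from the pancreas of control mice and of mice labelled VhlhKO, and RNA from 3 batches of islets per genotype was hybridised to 1 Affymetrix array each. The model is described as a conditional, beta-cell-specific knockout made with RIP2-Cre, in which the rat insulin 2 promoter drives Cre recombinase, and with Vhlh(fl/fl) alleles. Controls are labelled only as control, and whether they carried Cre or the floxed alleles is not given in the sources used here, nor is the number of mice in a batch. In each genotype, array 01 came from males of 26 weeks, array 02 from females of 20 weeks and array 03 from males of 18 weeks. The deleted gene encodes the von Hippel-Lindau protein, through which hypoxia-inducible factors (HIF) are degraded in the presence of oxygen, and the comparison is of islet transcripts with and without it in beta cells. Only the batches stand as replicates. Unless stated otherwise, p-values, standard errors (SE) and intervals come from a fit without pairing. The spread between batches that they measure therefore includes differences in age and sex.

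Beta cells make and fold large amounts of proinsulin, and their ER is correspondingly large. Unfolded protein in the ER lumen is sensed by PERK (the product of Eif2ak3), IRE1 alpha (Ern1) and ATF6. PERK slows translation through eIF2 alpha and so favours synthesis of ATF4, IRE1 alpha splices the Xbp1 transcript, and ATF6 is cut in the Golgi to release a transcription factor. XBP1 and ATF6 act on chaperone and degradation genes, many of which carry an ER stress response element (ERSE), and ATF4 acts on amino acid, redox and feedback genes through amino acid response elements.

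Promoter elements of the unfolded protein response were looked for in the genes, which were named as known members of that pathway. RefSeq promoter windows of assembly GRCm38.p6, from 250 bases before to 50 after an annotated start, were found for 30 of the 35 genes; Hyou1, Manf, Atf6, Ppp1r15b and Derl1 had no entry in the table used. Both strands were searched for the ERSE (CCAAT, 9 bases of any kind, then CCACG), for ERSE-II (ATTGG, any base, then CCACG), for the XBP1-type TGACGTGG and for the amino acid response element TGATGNAA, in which N is any base. The ERSE was found for 9 of the 30 genes (30.0%) and for 37 of all 27025 genes with a window (0.137%). ERSE-II was found for Herpud1 and Dnajb11, which is 6.67% of the 30 against 0.0444% of all genes. The amino acid element was found for Trib3, Asns, Chac1 and Herpud1 (13.3% against 4.51%), and TGACGTGG for 0 of the 30 and 0.714% of all genes. At least 1 match was found for 14 of the 30 genes; the same share over all genes was not counted, so this number has no background beside it. A match describes letters in a window and is not a measured binding site.

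The following stretches show the ERSE matches, the ERSE-II of Herpud1 and the amino acid response element of Asns, as examples of each kind found before the start, with 20 bases on either side unless the start cuts them short. They are written 5′ to 3′ on the strand of the gene. Capitals mark the element, which in Calr, Creld2, Derl3 and the proximal site of Hsp90b1 lies in the opposite orientation and so reads from CGTGG to ATTGG. The first 10 lines hold an ERSE, the line for Herpud1 an ERSE-II and the line for Asns an amino acid response element.
Hspa5, chr2:34772005-34772063, plus strand: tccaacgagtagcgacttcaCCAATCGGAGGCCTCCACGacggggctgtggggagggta
Pdia6, chr12:17266471-17266529, plus strand: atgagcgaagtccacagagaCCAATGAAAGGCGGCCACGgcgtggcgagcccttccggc
Dnajc3, chr14:118937807-118937865, plus strand: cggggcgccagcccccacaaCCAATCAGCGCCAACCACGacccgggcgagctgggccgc
Canx, chr11:50325780-50325838, minus strand: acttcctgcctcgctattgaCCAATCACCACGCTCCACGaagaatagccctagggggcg
Hsp90b1 (distal), chr10:86705618-86705676, minus strand: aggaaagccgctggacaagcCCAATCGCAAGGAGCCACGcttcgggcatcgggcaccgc
Hsp90b1 (proximal, opposite orientation), chr10:86705513-86705571, minus strand: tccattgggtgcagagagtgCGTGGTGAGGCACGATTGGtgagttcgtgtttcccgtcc
Syvn1, chr19:6046512-6046570, plus strand: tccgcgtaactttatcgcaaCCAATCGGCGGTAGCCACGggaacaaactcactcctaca
Calr, chr8:84847055-84847113, minus strand: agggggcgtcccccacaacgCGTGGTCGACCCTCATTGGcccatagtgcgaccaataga
Creld2, chr15:88819500-88819558, plus strand: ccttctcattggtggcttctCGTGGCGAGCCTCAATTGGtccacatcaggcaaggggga
Derl3, chr10:75893222-75893280, plus strand: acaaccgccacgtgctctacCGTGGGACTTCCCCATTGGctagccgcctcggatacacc
Herpud1, chr8:94386357-94386407, plus strand: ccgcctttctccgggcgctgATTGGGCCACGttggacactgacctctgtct
Asns, chr6:7693210-7693252, minus strand: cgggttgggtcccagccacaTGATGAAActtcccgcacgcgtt

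**Figure D1:**
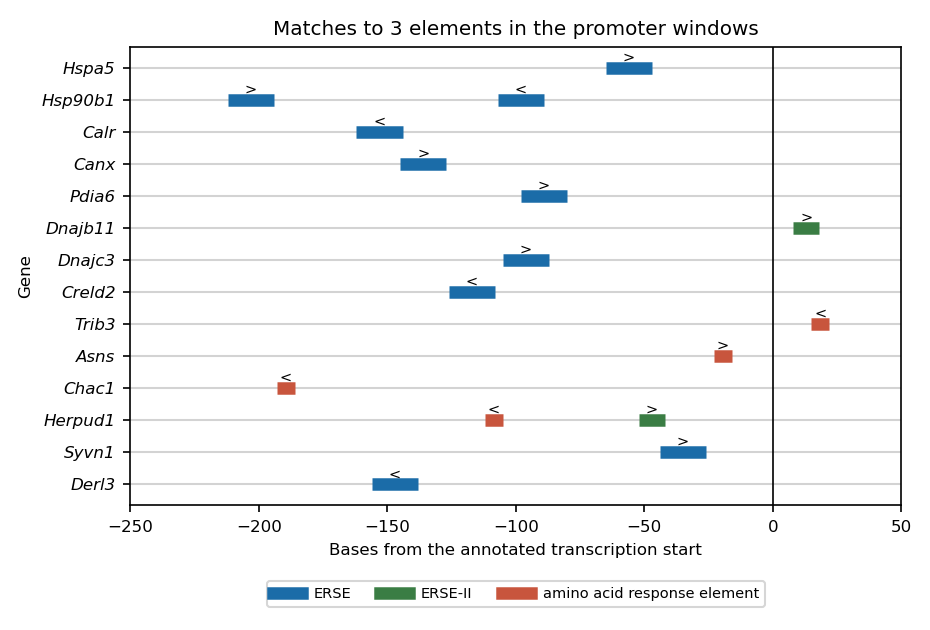
Position of each match, in bases from the annotated transcription start (horizontal axis), for the 14 genes with at least 1 match (vertical axis); the arrowhead gives the orientation relative to the gene. The ERSE of Hspa5 spans bases -65 to -47 and that of Syvn1 bases -44 to -26, while the matches of Dnajb11 and Trib3 lie after the start.

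The arrays differed in their content of exocrine transcripts. The mean log2 signal of 12 beta-cell markers lay between 12.17 and 12.86 on every array, and none was at 0. Markers of acinar cells, whose enzyme synthesis also needs a large ER, had a mean log2 signal of 14.58, 15.01 and 12.33 on control arrays 01 to 03 and of 14.68, 15.31 and 8.97 on VhlhKO arrays 01 to 03, over 21 genes. All 21 had a negative difference between genotypes, with a median of -1.02, although numbers 01 and 02 were higher in VhlhKO in that mean. Fibroblast and matrix markers had a mean between 8.09 and 8.99 on control arrays and of 9.07, 9.08 and 10.72 on VhlhKO arrays, with a positive difference for 10 of 10 genes (median 1.22). Positive differences were also found for 9 of 9 endothelial markers (median 0.44), 9 of 9 markers of alpha, delta and PP cells (0.34) and 6 of 6 leukocyte markers (0.41), and for 4 of 12 beta-cell markers (-0.22). Plasma cells, another secretory type, were represented by 3 tested markers of mean log2 between 7.15 and 8.46. The ratio of 3′ to 5′ probe sets of actin, a sign of RNA length, ranged from 3.34 on control 02 to 15.1 on control 03. That of Gapdh ranged from 4.64 on VhlhKO 03 to 11.9 on VhlhKO 01 and was 5.74 on control 03. Vhl, the targeted gene, had signals of 457, 639 and 839 on control arrays and of 344, 358 and 467 on VhlhKO arrays. Its log2 difference of -0.70 (SE 0.32, limma adjusted p 0.9999) did not pass the threshold of 0.05, and 1 control and 1 VhlhKO signal overlapped. Whether its probe set lies in the deleted part of the gene is not given in the sources used here.

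All 35 genes were expressed above the array median on all 6 arrays, and for 0 of them did a difference between the genotypes pass the threshold. No gene had an adjusted p under 0.05 (limma, Benjamini-Hochberg over 11703 genes tested, of which 0.0171% passed) and the lowest was 0.9999. At an unadjusted p under 0.05 the count was likewise 0 of 35, where 2.56% of all tested genes lay, and the lowest p, that of Creld2, was 0.117. For 0 of the 35 genes did the 3 VhlhKO signals lie apart from the 3 control signals, against 6.71% of all tested genes. Log2 differences, VhlhKO minus control, ranged from -0.56 to 0.52 with a median of -0.02, 17 positive and 18 negative, beside a median of 0.00 over all tested genes. The median size of the difference was 0.13, and 0.21 over all tested genes. More than 1 probe set was tested for 21 of the 35 genes, and for 11 of these the probe sets differed in sign.

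These values also bound the difference. The 95% limma interval lay within a 2-fold change either way for 24 of the 35 genes, where 46.0% of all tested genes met that limit. It reached past 2-fold for Pdia4, Hyou1, Sdf2l1, Creld2, Eif2ak3, Atf4, Asns, Herpud1, Edem2, Sel1l and Syvn1, so for these a change of that size was not excluded. With the array number as a block, which takes same-numbered arrays as pairs, the interval lay within 2-fold for 30 of the 35 genes and for 60.8% of all tested genes. The exceptions were then Pdia4, Hyou1, Sdf2l1, Creld2 and Herpud1. The SE of Eif2ak3 was 0.22 with the block and 0.43 without it, and that of Sel1l 0.21 and 0.46. On the same arrays 9 genes known to be induced by HIF, among them Ldha, Pgk1, Slc2a1 and Bnip3, had every VhlhKO signal above every control signal, with log2 differences from 1.50 to 6.31, and 1 of them, Ak4, passed the adjusted threshold. That list was chosen with its result known, and it is given for scale.

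**Figure D2:**
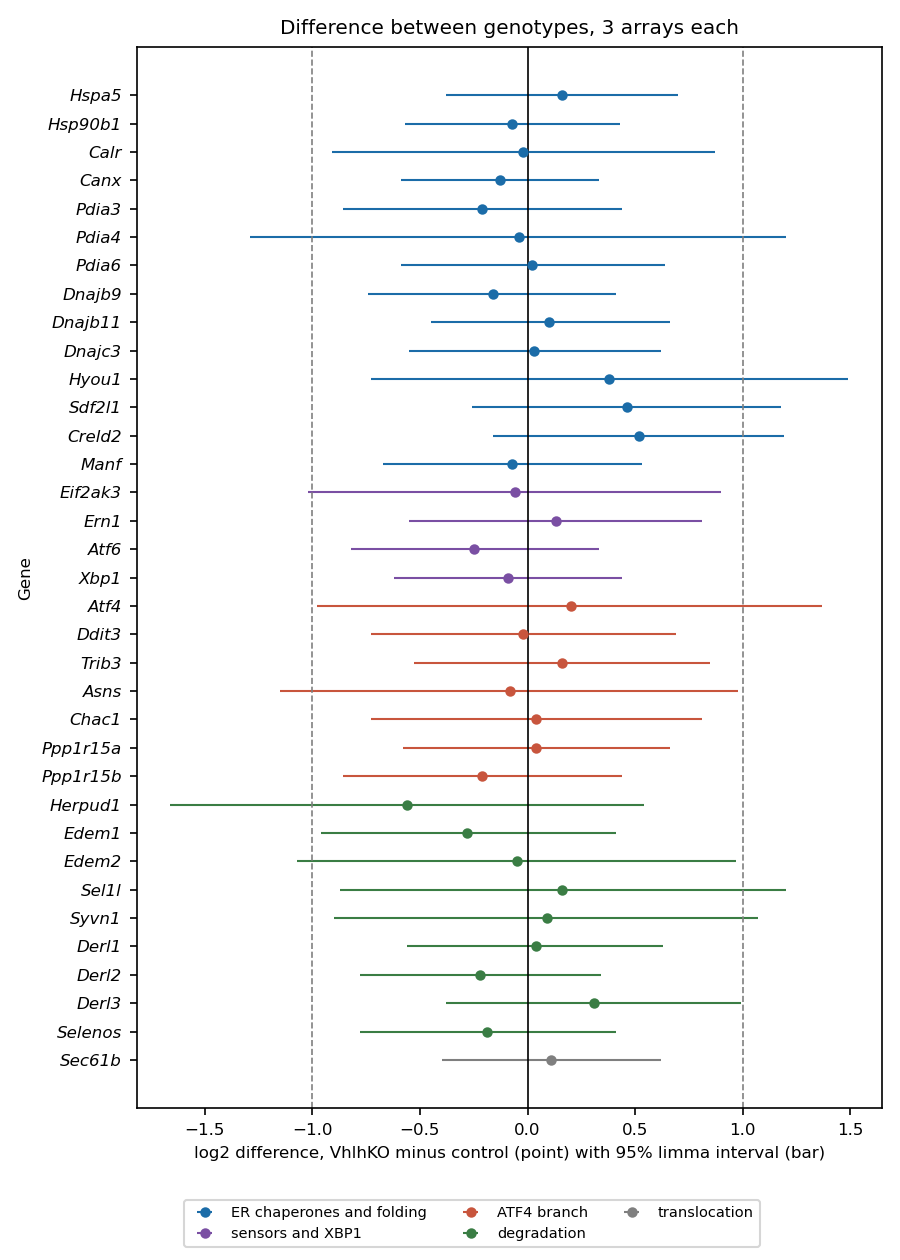
Log2 difference between genotypes for the 35 genes (vertical axis), VhlhKO minus control, with 95% limma intervals over 3 arrays per genotype (horizontal axis); dashed lines mark 2-fold either way. Every interval includes 0, and 24 of the 35 lie between the dashed lines.

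The 14 chaperones and folding enzymes had a median log2 difference of 0.00, with 7 genes above and 7 below 0. Hspa5 encodes BiP, the Hsp70 chaperone that binds nascent chains and keeps the sensors inactive. Its signals were 18231, 28916 and 24986 on control arrays and 26763, 29925 and 22963 on VhlhKO arrays. The lowest of the 6 was a control and the genotypes overlapped, with a log2 difference of 0.16 (SE 0.24, 95% interval from -0.38 to 0.70). Its probe set was the brightest of the 35, and array maxima were between 40917 and 76826. Dimmer Hspa5 probe sets differed by -0.10 and 0.10. Hsp90b1, the ER Hsp90 chaperone GRP94, differed by -0.07 (SE 0.22), with a VhlhKO range from 17973 to 18977 inside the control range from 15988 to 23658. A second, dimmer Hsp90b1 probe set differed by 0.05. The lectin chaperones calnexin (Canx, -0.13, SE 0.20) and calreticulin (Calr, -0.02, SE 0.40) hold glycoproteins during folding. Calr had control signals of 12129, 14012 and 17369, while its VhlhKO signals of 26811, 8271 and 12743 included both the highest and the lowest of the 6 arrays.

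Protein disulfide isomerases form and rearrange the disulfide bonds that proinsulin needs. Pdia3, which works with calnexin and calreticulin, differed by -0.21 (SE 0.29) and Pdia6 by 0.02 (SE 0.27). Pdia4 had the dimmest probe set of the 35, with control signals of 630, 285 and 306. Its VhlhKO signals were 166, 398 and 762, so they bracketed the controls, and its difference was -0.04 (SE 0.55), with an interval reaching past 2-fold either way. Among the J-domain co-chaperones of BiP, Dnajb9 differed by -0.16, Dnajb11 by 0.10 and Dnajc3 by 0.03 (SE 0.25, 0.25 and 0.26). The other tested Dnajc3 probe sets, all dimmer, had the opposite sign, at -0.13, -0.49 and -0.35. Signals of Dnajb11 covered the narrowest range of all 35 genes, a factor of 1.26 over the 6 arrays. Manf, an ER-resident trophic factor of secretory cells, differed by -0.07 (SE 0.27).

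Creld2, Sdf2l1 and Hyou1 had the lowest p-values of the folding group. Creld2, an ER stress-inducible isomerase-like protein, had signals of 4837, 4303.5 and 3755 on control arrays and of 8341, 4261 and 6433 on VhlhKO arrays. VhlhKO 01 and 03 lay above all controls and VhlhKO 02 among them, with a difference of 0.52 (SE 0.30, adjusted p 0.9999). Sdf2l1, a component of the BiP chaperone complex, had control signals of 809, 730 and 438 and VhlhKO signals of 726.5, 925 and 1002. Its difference was 0.46 (SE 0.32) and its same-numbered pairs differed by -0.16, 0.34 and 1.19. Hyou1, the nucleotide exchange factor GRP170, had control signals of 8142, 5190 and 23304 and VhlhKO signals of 10074, 12693 and 16993. The highest and the lowest array were both controls, and the difference was 0.38 (SE 0.49). A second, dimmer Hyou1 probe set had the opposite sign, at -0.45.

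The 4 genes of the sensor group had a median difference of -0.07. Eif2ak3 (PERK) had control signals of 2542, 4053 and 1419 and VhlhKO signals of 2388, 3387 and 1612, which run alike by array number, and differed by -0.06 (SE 0.43). Ern1 (IRE1 alpha) had 4618.5, 4279 and 5658 in controls against 6701, 3572 and 6116, a difference of 0.13 (SE 0.30). Atf6 had 2559.6, 2268 and 1976 in controls against 2052.5, 1976 and 1684. It was lower in the VhlhKO array of each same-numbered pair, yet the genotypes overlapped, at a difference of -0.25 (SE 0.25, 95% interval from -0.82 to 0.33). The other tested Atf6 probe sets, which were dimmer, had the opposite sign, at 0.13 and 0.04. The same direction in all 3 pairs was found for 3 of the 35 genes (Atf6, Herpud1 and Edem1, each lower), while 24.7% of all tested genes met it. Second probe sets of Herpud1 and Edem1 did not keep it. On VhlhKO 03 against control 03 they were higher, at 3233.0 against 2667.7 and 1432.9 against 1193.0. Xbp1, the transcription factor made active by IRE1 splicing, was nearly constant in controls at 19695, 19520 and 19890, and spread from 15044 to 24284 on VhlhKO arrays. Its difference was -0.09 (SE 0.23), and its 3 other tested probe sets differed by -0.20, -0.27 and -0.31. The probe sets measure total transcript, and splicing of Xbp1 was not analysed here.

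The 7 genes of the ATF4 branch had a median difference of 0.04. Atf4 itself had control signals of 4861, 3267 and 11989.5 and VhlhKO signals of 8509, 3546 and 9536. Both genotypes were lowest on array 02 and highest on array 03, and the difference was 0.20 (SE 0.52). That probe set has the suffix _x_at, given to probe sets that may cross-hybridise, and a second Atf4 probe set of nearly the same brightness differed by -0.16. Ddit3 (CHOP), a transcription factor linked to apoptosis in prolonged ER stress, had 961.5, 870.3 and 1139 in controls and 1165, 658 and 1189.7 in VhlhKO, a difference of -0.02 (SE 0.31, 95% interval from -0.73 to 0.69). Trib3, a pseudokinase induced by ATF4 and CHOP, had 645, 561 and 431 in controls and 678, 448 and 714 in VhlhKO, a difference of 0.16 (SE 0.31).

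Asns, asparagine synthetase, had control signals of 12273, 8943 and 3427 and VhlhKO signals of 5769.5, 10361 and 5276. Its controls alone covered more than the whole VhlhKO range, and the difference was -0.08 (SE 0.47). A second, dimmer Asns probe set differed by 0.08. Chac1, which degrades glutathione, differed by 0.04 (SE 0.34). Ppp1r15a (GADD34), the induced subunit that directs phosphatase to eIF2 alpha, had signals between 507 and 700 on all 6 arrays and differed by 0.04 (SE 0.28). Its constitutive counterpart Ppp1r15b had 2338, 2032 and 1592 in controls against 1343.5, 2034 and 1789 in VhlhKO and differed by -0.21 (SE 0.29).

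The 9 degradation genes had a median difference of -0.05, with 4 above and 5 below 0. Herpud1, a membrane scaffold of the degradation complex, had the most negative value of the 35 genes. Its signals were 13723, 10131 and 3899.5 on control arrays and 5027, 9025 and 3757 on VhlhKO arrays. The VhlhKO signal was 68.0% of control (log2 difference -0.56, SE 0.49, adjusted p 0.9999), and the pairs differed by -1.45, -0.17 and -0.05, so the pair numbered 01 supplied most of it. A second Herpud1 probe set differed by -0.65. Edem1, a lectin that hands misfolded glycoproteins to degradation, had 1667.5, 2661 and 2489 in controls against 1519.5, 2379.8 and 1712, a difference of -0.28 (SE 0.30). Its relative Edem2, which trims mannose, differed by -0.05 (SE 0.45).

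Sel1l and Syvn1 (HRD1) are the adaptor and the ubiquitin ligase at the core of the retrotranslocation complex. Sel1l differed by 0.16 (SE 0.46) and Syvn1 by 0.09 (SE 0.44). Syvn1 had controls of 915, 916 and 1205 and VhlhKO signals of 2192, 647 and 855, so here too VhlhKO 01 was the highest and VhlhKO 02 the lowest of the 6 arrays. The derlins, membrane proteins of the same complex, differed by 0.04 (Derl1, SE 0.26), -0.22 (Derl2, SE 0.25) and 0.31 (Derl3, SE 0.30). Derl3 had control signals of 743, 414 and 652 and VhlhKO signals of 673, 824 and 683, with a low value on control 02. Selenos, a selenoprotein that recruits the extracting ATPase, differed by -0.19 (SE 0.26). Its other probe sets disagreed in size, at -0.01 and, for a dimmer probe set, -0.99 (unadjusted p 0.0327, adjusted p 1 over all probe sets). Sec61b of the translocation channel had 11147, 13605 and 15005 in controls against 15098, 12237 and 15471 in VhlhKO, and differed by 0.11 (SE 0.23).

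**Figure D3:**
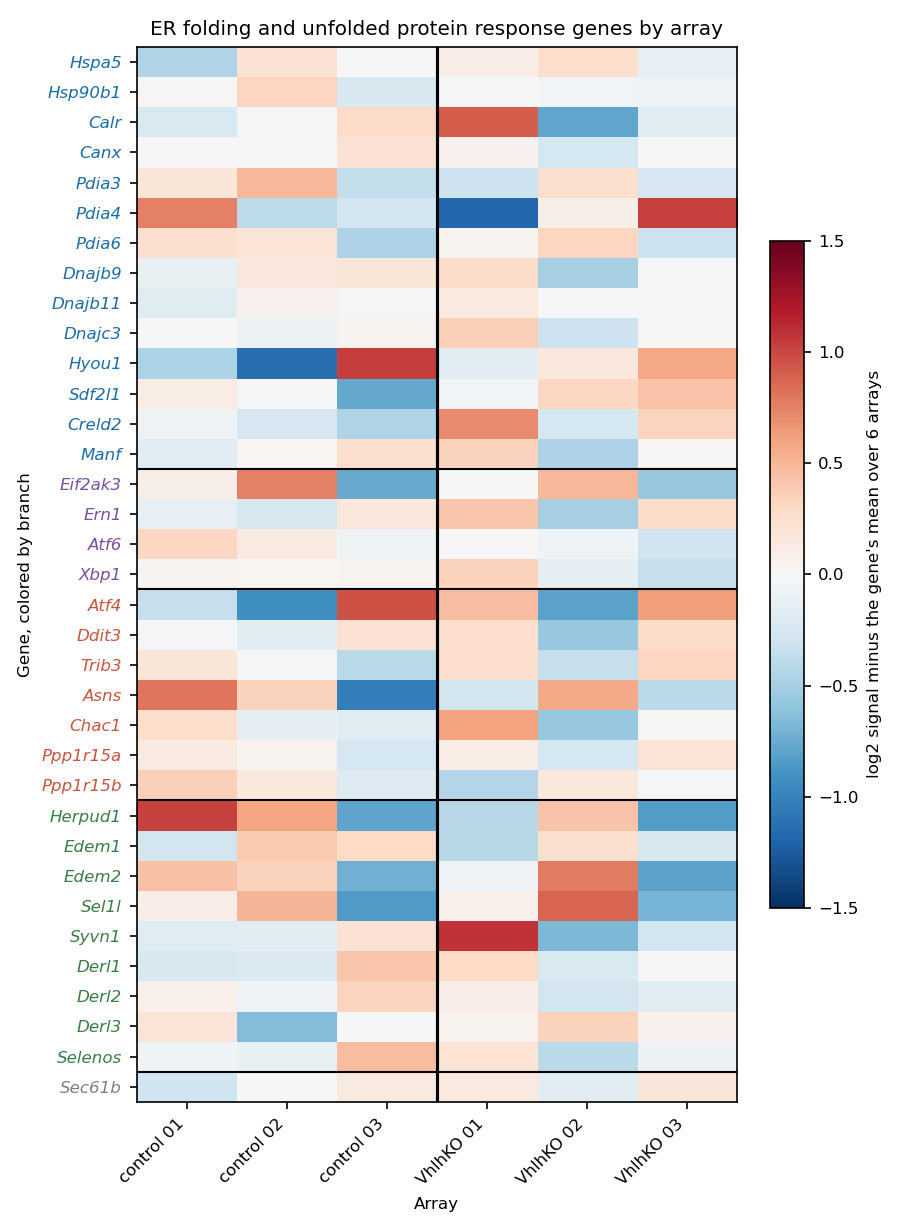
Log2 signal of each of the 35 genes (vertical axis, in branch order) on each of the 6 arrays (horizontal axis), relative to the gene's own mean over the arrays; red is above and blue below that mean. VhlhKO 01 is the highest array for Calr and Syvn1 and VhlhKO 02 the lowest, while the arrays numbered 03 of both genotypes are low for Sel1l, Edem2 and Herpud1.

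The signals varied between arrays of the same genotype. Over the 6 arrays the highest signal of a gene was between 1.26 and 4.59 times its lowest, with a median of 1.79 times, against a median of 2.17 times over all tested genes, and 13 of the 35 exceeded 2-fold. VhlhKO 01 was the highest array for 10 of the 35 genes (28.6%, and 21.4% of all tested genes), and VhlhKO 02 the lowest for 12 (34.3%, and 18.0% of all). Calr, Dnajb9, Dnajc3, Manf, Ern1, Chac1 and Syvn1 met both conditions, 7 of 35 genes where 6.56% of all tested genes did. Their signals on VhlhKO 01 were between 1.59 and 3.39 times those on VhlhKO 02. This pair of arrays was picked after the values were seen. The ratio of 3′ to 5′ probe sets was 11.28 for actin and 11.9 for Gapdh on VhlhKO 01, and 3.43 and 6.12 on VhlhKO 02. Control 03 had the highest actin ratio, 15.1, but a Gapdh ratio of 5.74, below that of VhlhKO 02. It was the lowest array for 9 of the 35 genes (25.7%, and 19.5% of all) and the highest for 6 (17.1%, and 19.3% of all). The part of RNA length in these counts was not tested.

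The spread between arrays was also set against array number, which joins age, sex and preparation, and none of the 35 genes passed after adjustment. An F test of the number in the limma fit with the number as a block, added after the data were seen, gave 0 of 35 genes at an adjusted p under 0.05 (0.222% of all tested genes) and 8 of 35 at an unadjusted p under 0.05 (16.2% of all tested genes). The lowest adjusted p, that of Sel1l, was 0.135. The genes with an unadjusted p under 0.05 are described below. They were picked by this test, so their like position on the arrays numbered 03 in both genotypes is not a separate result. The full order of the numbers was the same in both genotypes only for Sel1l, Eif2ak3 and Atf4. Both arrays numbered 03 lay below the other 4 for 8 of the 35 genes (13.9% of all tested genes) and above them for Atf4 and Hyou1 (14.6% of all tested genes). The 8 were Hsp90b1, Pdia6, Eif2ak3, Atf6, Asns, Herpud1, Edem2 and Sel1l. For Atf6 the margin was slight, with 1975.7 on control 03 and 1976.4 on VhlhKO 02.

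Sel1l had signals of 5149, 6862 and 2683 on control arrays 01 to 03 and of 5071, 8845 and 2964 on VhlhKO arrays 01 to 03. Its mean on the arrays numbered 03 was 44.7% of that on the other arrays (unadjusted p 0.00161), and its order over the numbers was the same in both genotypes. Edem2, with 3427.5, 3218 and 1533 against 2437, 4317.5 and 1450.0, stood at 45.4%. Herpud1 stood at 43.0%, Asns at 47.2% and Eif2ak3 at 50.1%, while Atf4 was 2.29 times and Hyou1 2.32 times as high on the arrays numbered 03. The other tested Sel1l probe sets, all dimmer, were lowest on array 03 in controls only. They had 669.3, 340.3 and 146.6 on VhlhKO 01 and 698.2, 432.4 and 226.4 on VhlhKO 03. The second Herpud1 probe set was likewise lower on VhlhKO 01, at 2234.4, than on VhlhKO 03, at 3233.0. A second, dimmer Hyou1 probe set had 989.5, 619.3 and 455.7 on control arrays and 513.1, 451.0 and 469.3 on VhlhKO arrays. It was not high on the arrays numbered 03. The second Atf4 probe set had 5854.6, 4777.6 and 6700.4 on control arrays and 6070.8, 3553.7 and 6207.8 on VhlhKO arrays, a smaller rise. Acinar markers were lowest on those arrays, with a summed signal over 21 genes of 188342 on control 03 and 17491 on VhlhKO 03, against values between 650963 and 1013327 on the other 4. In bulk RNA, fewer cells of a type and less RNA per cell cannot be told apart, and age, sex, preparation and acinar content cannot be told apart by number.

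**Figure D4:**
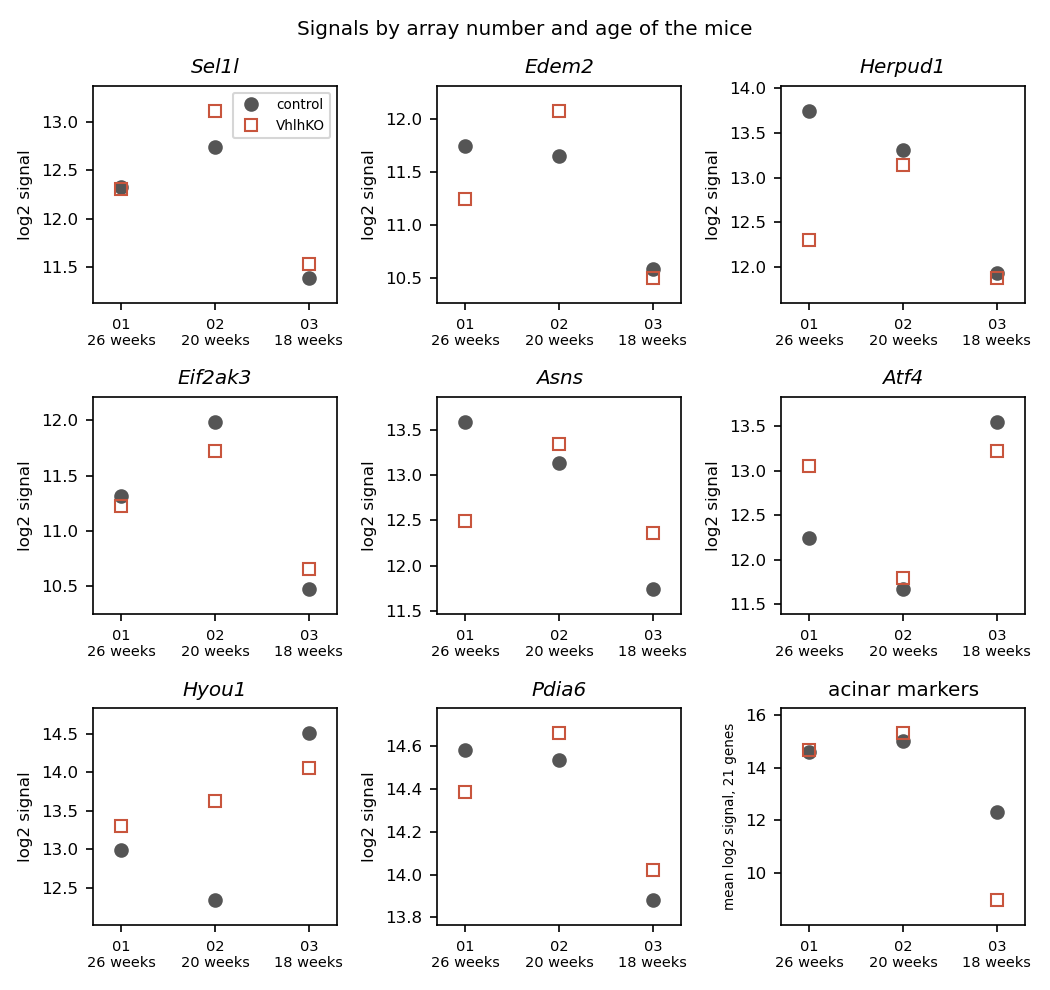
Log2 signal (vertical axis) by array number and age (horizontal axis) for the 8 genes with an unadjusted p under 0.05 for the number, and the mean log2 signal of 21 acinar markers; filled circles are control and open squares VhlhKO arrays. On the arrays numbered 03 Sel1l, Edem2, Herpud1, Eif2ak3, Asns, Pdia6 and the acinar markers are low and Atf4 and Hyou1 are high in both genotypes. This holds for the probe sets drawn, and a second Hyou1 probe set, not drawn, is not high there. Other tested probe sets of Sel1l and Herpud1, not drawn, are lower on VhlhKO 01 than on VhlhKO 03.

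In wider lists of the same pathway, likewise, no gene passed the adjusted threshold. Of 102 tested genes in 6 further lists, 0 had an adjusted limma p under 0.05. An unadjusted p under 0.05 was found for 1 (2.56% over all tested genes), and 5 had groups that did not overlap (6.71% over all tested genes). Among 20 further genes of oxidative folding the median difference was -0.11, and 6 were positive. Ero1a, the ER oxidase that recharges disulfide isomerases and a known HIF target, had signals of 3694, 3528 and 2463 on control arrays. On VhlhKO arrays it had 3959, 4381 and 4919, all above the controls, with a difference of 0.47 (SE 0.27, 95% interval from -0.13 to 1.07) that did not pass. Its beta-cell paralogue Ero1b differed by 0.00 (SE 0.21). Hspa13, an Hsp70 of microsomes, had 9214, 10456 and 9114 in controls and 5313, 8218 and 7560.0 in VhlhKO, all below the controls, at -0.47 (SE 0.25). Prdx4, an ER peroxiredoxin, differed by 0.72 (SE 0.56).

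Of 21 tested genes of translocation and glycosylation 17 had a negative difference, with a median of -0.10, where 5757 of all 11703 tested genes were negative. Acinar markers were negative for 21 of 21 genes, and their part in this count was not tested. The signal recognition particle receptor genes Srpr (-0.29) and Srprb (-0.35) and the signal peptidase subunit Spcs3 (-0.29) had the lowest p-values there, and none passed. For 17 further degradation genes the median was -0.06, with Ufd1 at -0.43, Ubac2 at -0.80 and Faf2 at 0.48. Ubac2 rested on VhlhKO 01, with a signal of 67.6 where the other 5 arrays lay between 381 and 477. All 8 tested genes of eIF2 kinases and factors had a negative difference, with a median of -0.30, led by Eif2ak2 at -0.62, Eif2b3 at -0.33 and Eif2b4 at -0.28. Eif2ak2 was dim, with 52.7 on VhlhKO 03 and between 136.8 and 220.1 on the other arrays. Eif2b1, at -0.38, rested on VhlhKO 01, with 484.9 where the other arrays lay between 1257.7 and 1581.6. Of 12 other ER stress transducers the median was -0.11, with Atf6b at -0.51, Creb3 at -0.23 and Wfs1, mutated in Wolfram syndrome, at -0.25. Atf6b was dim, with a geometric mean signal of 121.1, and exceeded the array median on 4 of 6 arrays.

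The 24 further ATF4 targets had a median of 0.25, with 17 positive. Ddit4 (REDD1), an inhibitor of mTORC1 that HIF also induces, was the gene at an unadjusted p under 0.05. It had control signals of 639, 2049 and 1420 and VhlhKO signals of 1680.0, 7217 and 4053, higher in each same-numbered pair, with a difference of 1.57 (SE 0.57, unadjusted p 0.0220, adjusted p 0.9999). Atf3, a transcription factor of acute stress, had 222, 782 and 451 in controls against 491, 1158 and 1854 and differed by 1.25 (SE 0.56), and Psat1, of serine synthesis, by 0.62 (SE 0.33). The groups overlapped for all 3 genes, and the differences of fibroblast, endothelial, leukocyte and non-beta endocrine markers given above were also positive; their part in these values was not tested.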

How the data were processed

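Each deposited value is a linear signal intensity of 1 probe set on 1 array; the submitters' processing notes name MAS5 and GCOS 1.4 for it. The arrays were hybridised with biotin-labelled RNA amplified in 2 cycles per the labels' protocols. The 2% trimmed mean was 500.003 on every array, and array medians lay between 101.9 and 122.7. Of 45037 probe sets other than controls, the platform annotation gave 34945 a single symbol, and an Entrez match to RefSeq (GRCm38.p6) changed 0 symbols. A gene was tested if its signal exceeded the array median on at least 3 of 6 arrays. Log2 signals, with no value added, were fitted in R 4.3.3 with limma 3.58.1 (lmFit, eBayes with trend) and Benjamini-Hochberg adjustment over all 11703 genes. The fit was also run on simulated data with independent noise and no structure by array number. That run cannot tell how the fit behaves under such structure. Folds are ratios of geometric means, VhlhKO over control. The number of arrays limits precision.

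The 35 genes, their branches and the other lists were chosen with earlier results of these data known. Per-array signals are given for the 3 genes of lowest p in each branch and the brightest and dimmest probe sets; those of other genes were chosen after their values were seen. Outside the 35 genes, up to 3 genes of lowest p per list were named, with Vhl and Ero1a; Ero1b was added afterwards.

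Arrays of equal number (01, 02 or 03) have the same age and sex in both genotypes, per the labels. Deviations from the group means correlated at 0.14, 0.41 and 0.42 within the pairs numbered 01, 02 and 03, each above the limit of 0.1, so the numbers were taken to pair the samples; control 01 with VhlhKO 02 also reached 0.14. Alternatives were the replicate block, other filters, a pseudocount of 16, quantile normalization, other choices of probe set, array weights, acinar and actin covariates, and each array left out.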

Additional observations from a re-analysis of the deposited data

How the results depend on the processing

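Under each of the 18 alternatives, replicate block included, 0 of the 35 genes passed at an adjusted p of 0.05, and with the replicate block the lowest adjusted p was 0.995. The replicate block changed no call and no difference, since the pairs are balanced, but it brought the count of intervals within 2-fold from 24 to 30 of 35, a count added after seeing the data. At an unadjusted p under 0.05 there was Edem2 with the mean of probe sets, the dimmer Selenos probe set with every probe set on its own, Hyou1 and Herpud1 without control 03, Creld2 without VhlhKO 02, and Hyou1 without both arrays numbered 03, a setting chosen after seeing the data; under the other alternatives there was 0.

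The median of the folding genes was 0.0017 and moved, by more than its spread between arrays of 0.04, to -0.06 with quantile normalization, to -0.06 with the mean of probe sets and to -0.07 with every probe set on its own; leaving out an array gave -0.04 to 0.10. Of the 35 genes, 12 kept their sign under every alternative. With quantile normalization Pdia6 turned to -0.07 and Derl1 to -0.0032. With the mean of probe sets Dnajc3 turned to -0.18, Hyou1 to -0.46, Ern1 to -0.25 and Edem2 to 1.48, through a second Edem2 probe set of mean signal 23.2, and without _x_at probe sets Atf4 turned to -0.16. Without both arrays numbered 03 Calr was 0.19, Pdia6 -0.03, Manf 0.0051, Xbp1 0.07, Trib3 -0.13, Chac1 -0.04 and Ppp1r15a -0.17. With the actin covariate Pdia4 was 0.02, Dnajc3 -0.00062, Eif2ak3 0.06, Asns 0.07, Edem2 0.08, Syvn1 -0.01 and Derl1 -0.03. With array weights Pdia6 was -0.13, Dnajc3 -0.0037, Chac1 -0.14, Ppp1r15a -0.06 and Sel1l -0.04. With the acinar covariate Eif2ak3 was 0.14, Atf4 -0.02, Asns 0.09, Edem2 0.18 and Derl1 -0.00088. The cause of these sign changes was not tested.

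Leaving out each array in turn gave these ranges where a sign changed: Hspa5 -0.03 to 0.31, Hsp90b1 -0.20 to 0.08, Calr -0.48 to 0.37, Pdia4 -0.56 to 0.53, Pdia6 -0.20 to 0.19, Dnajb9 -0.34 to 0.04, Dnajc3 -0.14 to 0.20, Hyou1 -0.09 to 0.99, Manf -0.26 to 0.15, Eif2ak3 -0.45 to 0.31, Ern1 -0.04 to 0.41, Xbp1 -0.28 to 0.06, Atf4 -0.21 to 0.73, Ddit3 -0.17 to 0.26, Trib3 -0.0012 to 0.37, Asns -0.62 to 0.30, Chac1 -0.25 to 0.33, Ppp1r15a -0.08 to 0.18, Edem2 -0.45 to 0.34, Sel1l -0.23 to 0.55, Syvn1 -0.43 to 0.45, Derl1 -0.10 to 0.25, Sec61b -0.0097 to 0.22, Ubac2 -1.32 to 0.09, Faf2 -0.04 to 0.80 and Wfs1 -0.40 to 0.006. Without a change of sign, Herpud1 ranged from -1.09 to -0.18, Creld2 from 0.29 to 0.78, Sdf2l1 from 0.19 to 0.63, Derl3 from 0.06 to 0.48, Prdx4 from 0.21 to 1.20, Eif2ak2 from -0.92 to -0.12, Ddit4 from 1.09 to 2.14 and Atf3 from 0.78 to 1.78.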
